A study of Bos taurus and Sus scrofa with 6 samples.

Results

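Complex I (NADH:ubiquinone oxidoreductase) is the first and largest enzyme of the mitochondrial respiratory chain, and most of its parts are encoded by nuclear genes whose names start with NDUF. The genes described here were every symbol in the deposited gene tables that begins with NDUFA, NDUFB, NDUFC, NDUFS or NDUFV, with the assembly factors (NDUFAF) kept apart from the subunits. There were 46 such symbols among the 19994 genes of the cattle table, 39 for subunits and 7 for assembly factors. The pig table gave 32 of the same symbols among 22694 genes, 25 for subunits and 7 for assembly factors. The other 14 symbols were analysed in cattle alone. NDUFA4 and NDUFA4L2 carry subunit names, but NDUFA4 is now assigned to cytochrome c oxidase, so both were left out of sums over complex I.

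The cells came from testes of prepubertal animals taken by castration, with 3 libraries from Holstein cattle aged 4.5 months and 3 from mixed breed pigs aged 3 months. No animal was treated, and total testicular cells were loaded without a sort, about 8000 per library on the 10x droplet platform, in which each captured mRNA molecule is counted by a unique molecular identifier (UMI). Species, breed and age could not be told apart in this design. By the study's methods the 3 libraries of a species came from different males. The library titles do not settle this by themselves, since a testis number is repeated within a species. The fits allow for differences between animals. The p-values therefore weigh a cell type difference against the spread that remained between the sums of those males. The spread of a gene was estimated over all cell types together. After filtering, 3444, 8138 and 5900 cattle cells and 3162, 3808 and 2236 pig cells were kept. Their median depth ran from 789 to 4462 UMIs in cattle and from 889 to 5878 in pig, and the first library of each species was the shallowest. Clusters were named from marker genes, and a name was withheld in some cases. These were clusters led by markers of another type or by genes of vascular mural cells, and shallow clusters without leading markers. A cluster that shared leading genes with a larger cluster of another name also stayed unnamed. The mural and shared-gene rules were set after the clusters were seen. In cattle these were germ-like (518 cells), Sertoli-like (4200), Leydig-like (1888), myoid-like (7953), endothelial-like (132), macrophage-like (406) and lymphocyte-like (2015) cells, and 370 cells stayed unnamed. In pig the same names held 1577, 2534, 1070, 620, 685, 532 and 150 cells, with 2038 unnamed, most of them from animal 1. All 12 germ markers measured in cattle and 10 of the 11 measured in pig were higher in the germ-like cells than in the other cells, KIT in pig being the exception. The same markers had named the clusters, so this is no separate check of the names. Of the Sertoli markers, AARD was not higher in pig Sertoli-like cells (0 against 0.42 CPM), and AMH was rare there (0.72 CPM). HSD17B3, listed as a Leydig marker, was not higher in Leydig-like cells of either species. The myoid markers were ACTA2 and MYH11 together with the stromal genes TCF21, PDGFRA, DCN, LUM, COL1A1 and COL3A1. Cattle myoid-like cells had 757 CPM of TCF21 and 4573 CPM of DCN beside 143 CPM of MYH11. The myoid-like name therefore does not keep peritubular myoid cells apart from other stromal cells. Any 2 libraries shared 8 to 61 cell barcodes, at most 1.21% of the smaller library.

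Complex I takes electrons from NADH at the tip of its matrix arm, passes them along iron-sulphur clusters to ubiquinone, and pumps protons across the inner membrane through its membrane arm. The nuclear core subunits form the electron path in the matrix arm, the mitochondrial genome encodes the proton-pumping core of the membrane arm, and the accessory subunits surround both. In the prepubertal testis, spermatogonia lie among Sertoli cells, which are known for a glycolytic metabolism that supplies lactate to germ cells, while Leydig cells start steroid synthesis inside mitochondria.

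The sequence just before the annotated start is shown for 4 pig genes on which later results turn: NDUFAF4, an assembly factor at its highest in germ-like cells of pig; NDUFA11 and NDUFB2, the membrane arm subunits with the largest germ-like differences in pig; and NDUFA4L2, whose transcripts lay mostly in 1 small cluster. Each run is 250 bases long and ends at the base before the gene start in the RefSeq annotation of Sscrofa11.1, the build of the pig files, and none overlaps an annotated exon. All 32 pig symbols matched a RefSeq gene, and NDUFB11 was the only 1 of them on chromosome X. NDUFAF4 lies on the minus strand of chromosome 1, and its run covers chr1:64044825-64045074. NDUFA11 lies on the plus strand of chromosome 2 (chr2:73130779-73131028). NDUFB2 lies on the minus strand of chromosome 18 (chr18:9150514-9150763), and NDUFA4L2 on the minus strand of chromosome 5 (chr5:22548419-22548668). Capitals mark letters of the searched motifs.
NDUFAF4: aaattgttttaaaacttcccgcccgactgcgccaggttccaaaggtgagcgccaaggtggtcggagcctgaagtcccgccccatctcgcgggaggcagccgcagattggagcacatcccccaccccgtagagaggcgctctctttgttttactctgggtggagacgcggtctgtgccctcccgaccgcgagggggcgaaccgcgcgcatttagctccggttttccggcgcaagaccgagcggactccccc
NDUFA11: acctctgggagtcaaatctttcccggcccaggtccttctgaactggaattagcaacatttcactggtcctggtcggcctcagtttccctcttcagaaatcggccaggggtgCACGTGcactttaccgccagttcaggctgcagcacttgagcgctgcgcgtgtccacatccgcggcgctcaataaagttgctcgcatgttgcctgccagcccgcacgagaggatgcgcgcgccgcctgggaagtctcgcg
NDUFB2: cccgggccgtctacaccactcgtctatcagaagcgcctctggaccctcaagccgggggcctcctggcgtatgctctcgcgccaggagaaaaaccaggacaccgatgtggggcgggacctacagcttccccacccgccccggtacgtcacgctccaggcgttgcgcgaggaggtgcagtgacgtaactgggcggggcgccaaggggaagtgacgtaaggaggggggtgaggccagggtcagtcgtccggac
NDUFA4L2: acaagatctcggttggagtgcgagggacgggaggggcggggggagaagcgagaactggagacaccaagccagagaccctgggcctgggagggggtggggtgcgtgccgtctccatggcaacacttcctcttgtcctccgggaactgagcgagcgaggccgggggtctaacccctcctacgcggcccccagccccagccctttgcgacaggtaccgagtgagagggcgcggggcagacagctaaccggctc

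Motifs of 3 factors known for control of respiratory genes or of the response to oxygen were searched on both strands: the palindromic NRF1 site, CCGGAAG (ETS family, which includes GABPA) and ACGTG (the core of the HIF site). The pair of ACGTG matches in NDUFA11 are the 2 strands of the single CACGTG printed in capitals. Among the 25 subunit genes, 1 had the NRF1 letters, 5 had the ETS letters (NDUFA10, NDUFB9, NDUFS1, NDUFS3 and NDUFV1) and 2 had the HIF letters. Over all 19559 protein-coding genes with such a run the shares were 4.75%, 7.77% and 18.7%. None of the 7 assembly factors held any of the 3. The upstream run of 12 of the 32 genes overlapped an annotated exon. Among the genes with the ETS letters, exons covered 54 bases of the run in NDUFB9 and 163 in NDUFS1. They covered 176 in NDUFS3, 198 in NDUFV1 and 0 in NDUFA10. Exons also covered 157 bases in NDUFAF2, 111 in NDUFAF5, 156 in NDUFAF6 and 215 in NDUFAF7. The motif counts are therefore not counts for sequence outside exons, and enrichment of the ETS letters was not tested. A match is a match of letters in this short run only.

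Levels were taken from UMIs summed over the cells of 1 type in 1 animal. They are given in CPM (the count of a gene scaled to a common library total) after TMM scaling. TMM adjusts library sizes with the aim that the bulk of genes is level between sums. A log2 difference compares 1 cell type with the unweighted mean of the other 6, with differences between animals allowed for. The bulk was not level after TMM: the median difference of all genes was 0.60 in cattle germ-like, 0.39 in pig germ-like and -0.24 in pig Leydig-like cells. Pig animal 1 had too few endothelial-like (2), lymphocyte-like (19) and myoid-like (16) cells for a sum. Those types enter the pig comparisons from animals 2 and 3 alone. The 37 nuclear complex I subunits of cattle summed to 11610 ± 1393 CPM (SD, n = 3) in Sertoli-like cells and to 10648 ± 1851 CPM in Leydig-like cells. The same sum was 8342 ± 876 CPM in myoid-like, 8008 ± 901 CPM in lymphocyte-like, 7788 ± 563 CPM in germ-like, 6892 ± 445 CPM in macrophage-like and 5327 ± 1132 CPM in endothelial-like cells. Sertoli-like and Leydig-like sums overlapped each other, and each of them lay above every other sum of cattle. The remaining neighbours in that order overlapped, except that every macrophage-like sum lay above every endothelial-like sum. By library size alone the cattle order changed, with germ-like cells first at 12578 ± 1061 CPM, above every other sum, and Leydig-like cells at 7860 ± 873 CPM. Per cell, germ-like cells held the most transcripts under any scaling, with 46.4, 79.7 and 194 subunit UMIs per cell in the 3 cattle against 13.9 to 58.4 in Sertoli-like cells. Germ-like cells were also the deepest in every library, with a median of 3514, 6180 and 16908 UMIs per cell in cattle, and the part of depth in the summed levels was not tested.

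**Figure D1:**
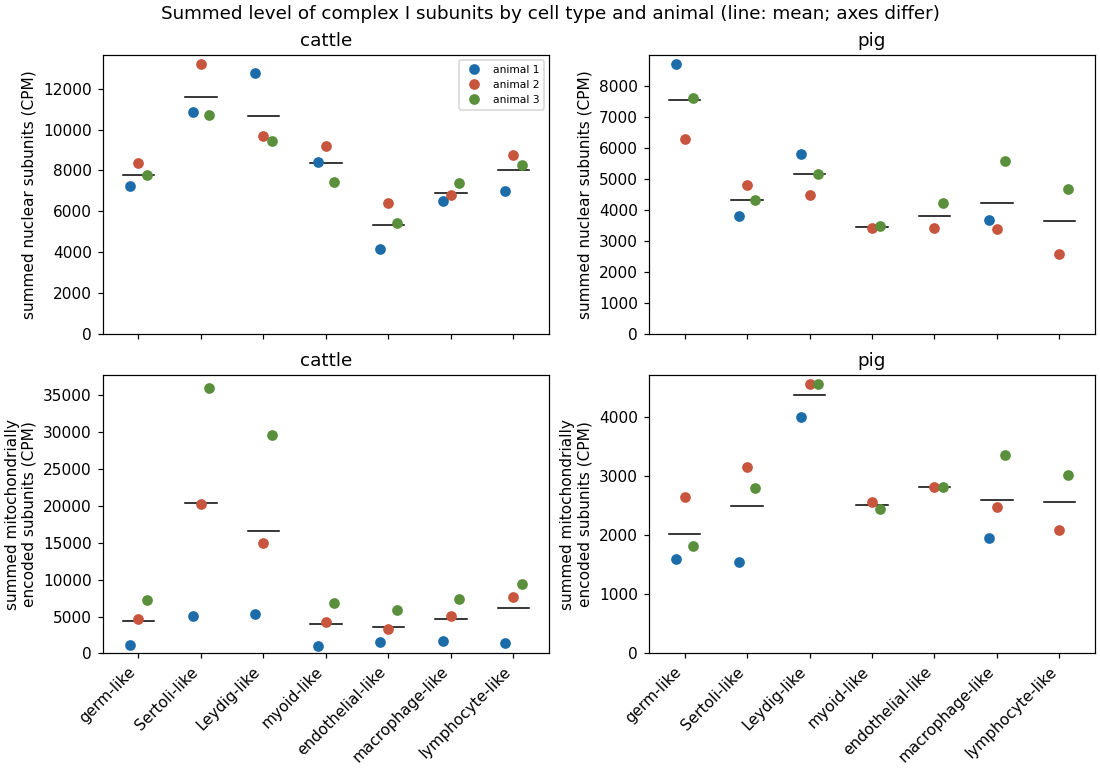
Summed level of nuclear (top) and mitochondrially encoded (bottom) complex I subunits in TMM-scaled CPM, by cell type, for cattle (left) and pig (right); each point is 1 animal, the line is the mean, and the axes differ between panels. In pig, germ-like cells have the highest nuclear sum (7532 CPM on average) and Leydig-like cells the highest mitochondrial sum (4378 CPM).

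In pig, the 23 measured complex I subunits summed to 8690, 6293 and 7613 CPM in the germ-like cells of the 3 animals. Leydig-like cells followed with 5799, 4475 and 5156 CPM, then Sertoli-like cells with 3789, 4796 and 4321 CPM. The lowest germ-like value lay above the highest value of any other type, which was 5799 CPM. The macrophage-like (4208 ± 1194 CPM, n = 3), endothelial-like (3798 ± 568 CPM, n = 2), lymphocyte-like (3624 ± 1496 CPM, n = 2) and myoid-like (3431 ± 45.7 CPM, n = 2) sums did not separate. Pig sums use fewer genes than cattle sums, so the totals of the species are not comparable.

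Whether a gene's level differed among the 7 cell types was tested with edgeR's quasi-likelihood test with the animal as a block and Benjamini-Hochberg adjustment over all genes. In cattle all 39 subunit symbols and 6 of 7 assembly factors passed at an adjusted p of 0.05, where 84.9% of the 14159 genes tested passed. In pig 14 of 24 tested subunit symbols and 4 of 7 assembly factors passed, where 71.0% of 15118 genes passed. NDUFA4 had no UMI in any pig cell type and was not tested, while its lowest mean level in a cattle type was 423 CPM. Absence of the transcript in pig and a fault of annotation or mapping cannot be told apart here. The highest mean level of a cattle subunit was in Sertoli-like cells for 18 genes, Leydig-like for 11, germ-like for 7, lymphocyte-like for 2 and myoid-like for 1. In pig it was in germ-like cells for 15 subunits and in Leydig-like cells for 6, with 1 each in Sertoli-like, endothelial-like and macrophage-like cells.

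**Figure D2:**
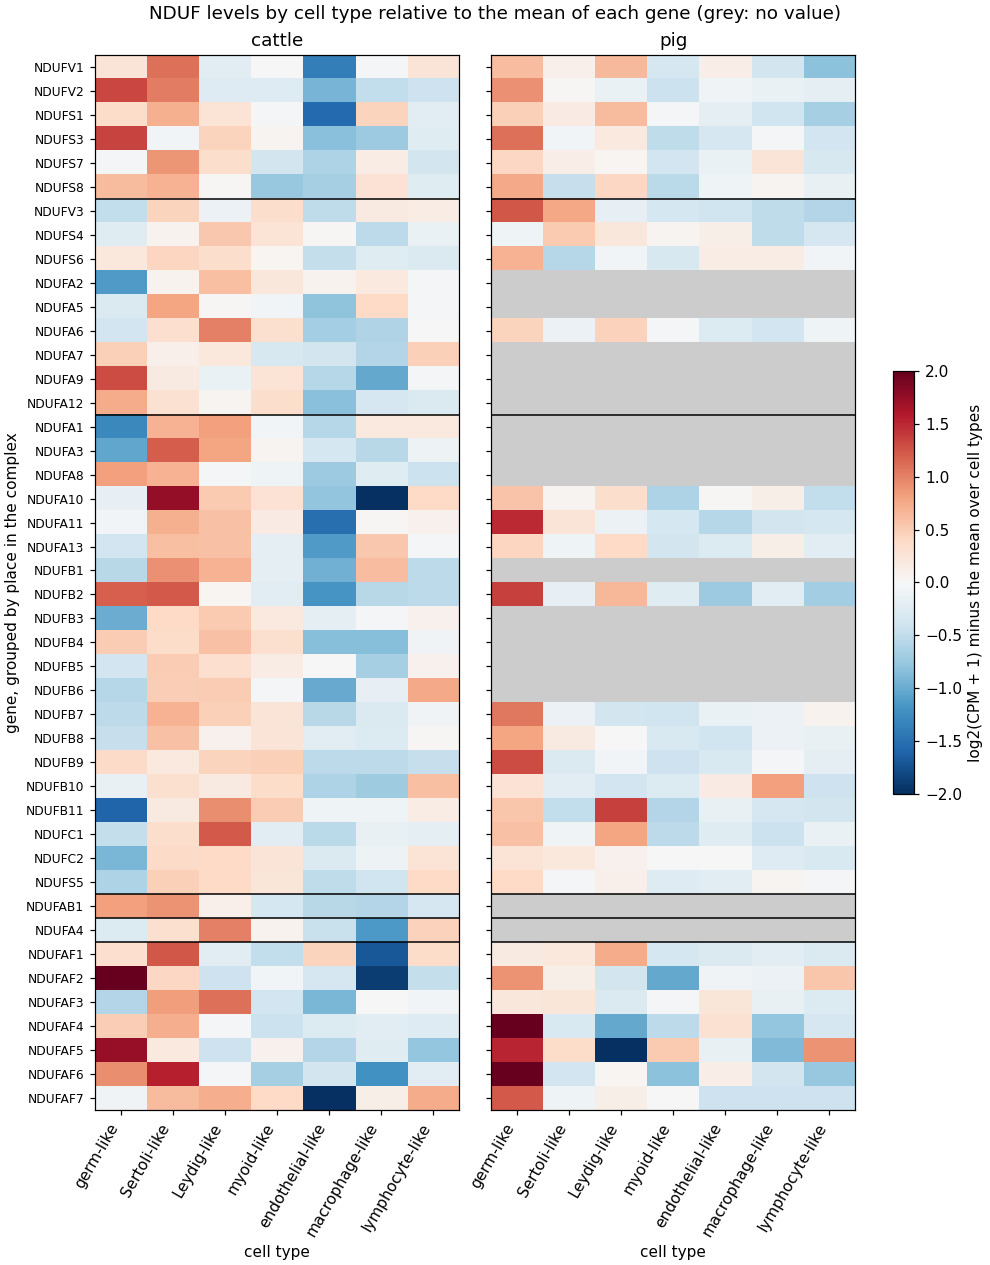
Mean log2(CPM + 1) of NDUF genes in 7 cell types of cattle (left) and pig (right), minus that gene's mean over the types; lines separate core, matrix arm, membrane arm, NDUFAB1, NDUFA4 and assembly factor genes, grey marks genes with no value, and NDUFA4L2 is not drawn. NDUFB11 and NDUFA1 are lowest in cattle germ-like cells, and most pig subunits are highest in germ-like cells.

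Under TMM, germ-like cells of cattle had low levels of most membrane arm subunits. Some electron path subunits were high, but the core subunits as a group did not lie above the median of all genes. Of the 39 subunit symbols, 12 were higher and 17 lower, where 41.8% of all genes were higher and 20.8% lower in these cells. Shares of all genes, here and below, cover every gene tested and are not matched to the members for level. Of the 7 core subunits 3 were higher and 1 lower, with a median log2 difference of 0.37 beside 0.60 over all genes. Of the 9 matrix arm accessory subunits 3 were higher and 3 lower. Of the 20 membrane arm accessory subunits 4 were higher and 13 lower, with a median of -0.57. This split depended on the scaling: by library size alone 24 subunits were higher and 5 lower, while the median of all genes in this comparison moved from 0.60 to 1.41. All 12 higher subunits and 13 of the 17 lower ones went the same way in 3 of 3 animals. Without animal 3 the count of lower subunits was 6, and without animal 2 the count of higher ones was 8. Relative to the median of all genes the subunit median lay 0.94 lower under TMM (-0.94) and 0.93 lower by library size (-0.93). A change of scaling moves all genes of this comparison by nearly the same amount, so these values are not separate checks.

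NDUFS3, a core subunit of the ubiquinone end of the matrix arm, stood at 359, 288 and 290 CPM in the germ-like cells of the 3 cattle. In Sertoli-like cells of the same animals it stood at 162, 109 and 81.7 CPM, and its highest value outside germ-like cells was 240 CPM in the Leydig-like cells of animal 1. The groups did not overlap, and the log2 difference was 1.61 ± 0.15 (SE), with an adjusted p of 3.2e-27. NDUFV2, an iron-sulphur subunit of the NADH-oxidising tip, had 378, 628 and 696 CPM in germ-like and 414, 470 and 482 CPM in Sertoli-like cells, so these 2 types overlapped and both lay above all others. Its log2 difference in germ-like cells was 1.51 ± 0.14 (adjusted p = 1.7e-24). NDUFS8, which carries iron-sulphur clusters on the way to ubiquinone, was higher by 0.75 ± 0.15 (adjusted p = 1.8e-06), a call that was lost without animal 2. NDUFV1, which binds NADH and the flavin, and NDUFS1 had differences of 0.23 and 0.37 and did not pass.

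The largest falls in cattle germ-like cells were in NDUFB11 and NDUFA1, membrane arm subunits whose genes lie on the X chromosome of mammals. NDUFB11 stood at 137, 94.8 and 98.4 CPM in germ-like cells. In the other 6 types it ranged from 278 CPM in the macrophage-like cells of animal 1 to 916 CPM in the Leydig-like cells of the same animal. The germ-like values lay below all of these, and the log2 difference was -1.94 ± 0.19 (adjusted p = 8.7e-24) and -1.12 by library size alone. NDUFA1 stood at 99.7, 184 and 127 CPM in germ-like and at 584, 602 and 597 CPM in Leydig-like cells. Its lowest value elsewhere was 64.4 CPM in the 24 endothelial-like cells of animal 1, so the ranges overlapped at that 1 sum. The log2 difference was -1.54 ± 0.18 (adjusted p = 3.0e-16) and -0.71 by library size alone.

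NDUFA2, a matrix arm subunit, and NDUFA3, of the membrane arm, followed. NDUFA2 had 97.9, 87.1 and 80.6 CPM in germ-like cells against 156 CPM or more in every other sum, a difference of -1.32 ± 0.18. NDUFA3 had 160, 207 and 181 CPM in germ-like and 587, 1141 and 865 CPM in Sertoli-like cells, a difference of -1.22 ± 0.18. The germ-like values of both genes lay below all other sums, and by library size alone they still pointed down, by -0.49 and -0.39. Of the 17 subunits called lower, these 4 together with NDUFB3 and NDUFC2 kept a negative sign by library size alone, and the other 11 did not. In near-empty barcodes of cattle, which hold free RNA, NDUFB11 stood at 449.9 CPM and NDUFA1 at 479 CPM, without TMM scaling. Both lay above the TMM-scaled germ-like level of the gene, and the part of free RNA in these differences was not tested.

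**Figure D3:**
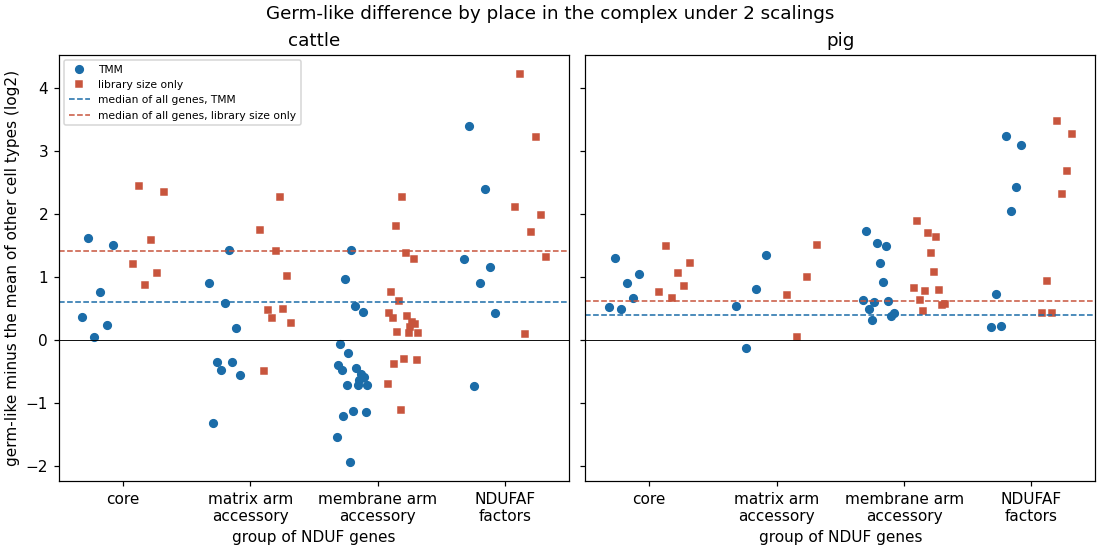
Log2 difference of germ-like cells from the mean of the other types for NDUF genes, grouped by place in the complex, in cattle (left) and pig (right); circles use TMM scaling and squares library size only, and the dashed lines are the medians of all genes. In cattle most membrane arm genes lie below the dashed line of their own scaling under either choice (medians of all genes 0.60 and 1.41). The scaling moves points and lines by nearly the same amount, so the choices are not separate checks.

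In pig germ-like cells, 15 of 24 tested subunits were higher and 0 lower, where 35.6% of all genes were higher and 19.6% lower. The median subunit difference was 0.64, beside 0.39 over all genes, so the subunits as a list lay 0.26 above the median of all genes. With library size as the only scaling 22 were higher and 0 lower, and DESeq2 also called 0 lower. The rise covered measured genes of both arms: 4 of 7 core, 3 of 4 matrix arm accessory and 8 of 12 membrane arm accessory subunits were called higher. Cattle had 9 matrix arm and 20 membrane arm accessory subunits measured. NDUFA1, NDUFA2, NDUFA3 and NDUFB3, all called lower in cattle germ-like cells, had no symbol in the pig table. Counts of higher and lower subunits in the 2 species therefore cover unlike sets of genes. The 15 genes were higher in 3 of 3 animals each, where animal 1 was set against its Sertoli-like, Leydig-like and macrophage-like cells alone. NDUFA10 and NDUFA6 were among the 15 but did not pass the test among cell types.

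NDUFA11, a membrane arm subunit, had the largest difference. It stood at 805, 599 and 712 CPM in germ-like cells of the 3 pigs, against at most 339 CPM in any other sum. The groups did not overlap, and the log2 difference was 1.73 ± 0.22 (adjusted p = 2.9e-14). NDUFB2, also of the membrane arm, had 736, 448 and 603 CPM in germ-like cells, above its Leydig-like values of 418, 298 and 376 CPM, with a difference of 1.53 ± 0.22. NDUFB9 followed with 915, 587 and 762 CPM and a difference of 1.48 ± 0.22, and NDUFV3, an accessory subunit at the NADH-oxidising tip, with 543, 291 and 391 CPM and 1.35 ± 0.22. Its Sertoli-like values of 322, 327 and 232 CPM overlapped the germ-like range. Among core subunits NDUFS3 (293, 261 and 290 CPM; 1.30 ± 0.22), NDUFV2 (1.04 ± 0.23) and NDUFS8 (0.89 ± 0.23) were higher, and so was NDUFV1 (0.66 ± 0.24, adjusted p = 0.012), which was not called without animal 1, without animal 2 or in cells with at least 500 genes. NDUFS1 and NDUFS7 had differences of 0.51 and 0.48 and did not pass.

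The difference between the species was tested directly, as the germ-like difference of pig minus that of cattle, over 12738 genes with the same symbol in both tables. The paper describes its germ cells as spermatogonia, and for pig also as spermatocytes in early prophase. Germ cell stage was therefore not matched between the species, and its part in these differences was not tested. Of the 32 shared NDUF symbols 16 differed, where 27.5% of all genes did. The difference was larger in pig for 15 of them and larger in cattle for 1, where 9.37% and 18.1% of all genes went each way. The counts were 10 and 3 by library size alone. Over the 29 members with a standard error under 10, which leaves out NDUFA4, NDUFA4L2 and NDUFAF7, the median was 0.89 under TMM and 0.48 by library size, beside -0.42 and -0.74 for all genes.

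NDUFB11 differed most among the subunits: its germ-like difference was -1.94 in cattle and 0.60 in pig, a gap of 2.41 ± 0.29 (adjusted p = 8.8e-13). In pig it stood at 314, 227 and 246 CPM in germ-like cells, above the Sertoli-like cells (147, 119 and 114 CPM) and below the Leydig-like cells (519, 389 and 469 CPM). The pig germ-like call itself had an adjusted p of 0.021 and was lost without animal 1, without animal 2, without the animal block and in cells with at least 500 genes. NDUFV3 went from -0.57 in cattle to 1.35 in pig (gap 1.80 ± 0.27), NDUFB7 from -0.64 to 1.22 (1.75 ± 0.27) and NDUFA11 from -0.07 to 1.73 (1.68 ± 0.27). NDUFC2, NDUFB8 and NDUFC1 had gaps of 1.40, 1.34 and 1.09. By library size alone the cattle differences of NDUFV3, NDUFB7, NDUFB8 and NDUFC1 had a positive sign. Subunits with like differences in both species were found as well. NDUFB2 differed by 1.43 in cattle and 1.53 in pig, with a gap of 0.00 ± 0.32, and NDUFS8 by 0.75 and 0.89, with a gap of 0.02 ± 0.27. NDUFS3 and NDUFV2 had gaps of -0.41 ± 0.26 and -0.58 ± 0.27, neither of which passed.

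**Figure D4:**
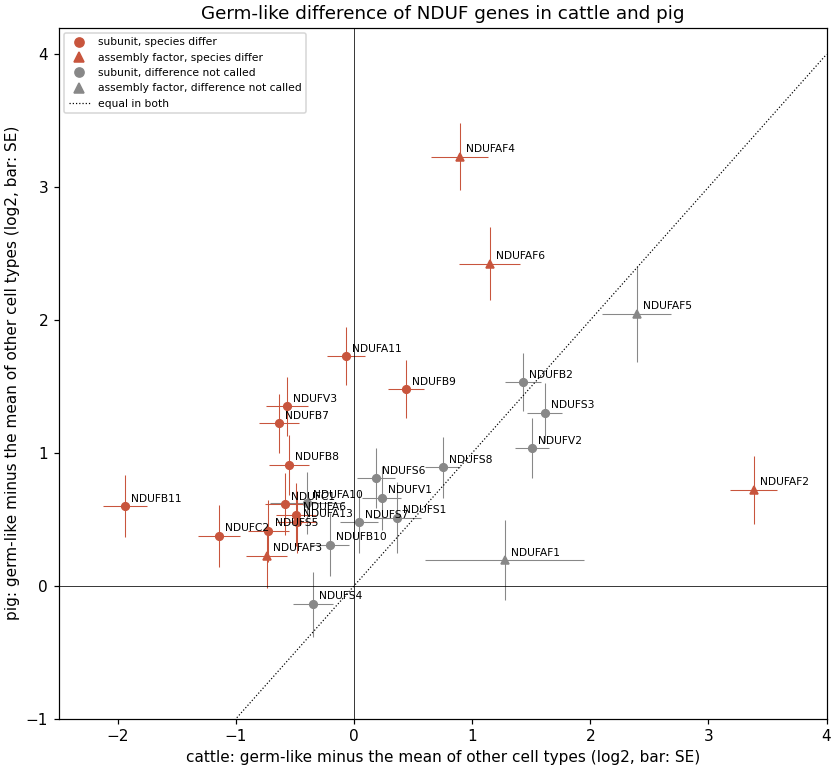
Log2 difference of germ-like cells from the mean of the other types in cattle (x axis) against pig (y axis) for shared NDUF genes, with SE bars; red marks genes whose difference differed between species, triangles are assembly factors, and the dotted line marks equal differences. Most red points lie above the line, and NDUFAF2 lies below it (3.38 in cattle, 0.72 in pig).

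The assembly factors, which help to build the complex and are not part of it when finished, included the genes with the largest germ-like rises: NDUFAF2 and NDUFAF5 in cattle, and NDUFAF4, NDUFAF6 and NDUFAF5 in pig, rose by more than any complex I subunit of the same species. In cattle 4 of 7 were higher in germ-like cells and 1 was lower, and in pig 5 of 7 were higher and 0 lower, beside 41.8% of all genes higher in cattle and 35.6% in pig. NDUFAF2, a paralogue of the subunit NDUFA12 that holds its place during assembly, stood at 52.7, 89.0 and 110 CPM in cattle germ-like cells. No other cattle sum exceeded 20.5 CPM, and the difference was 3.38 ± 0.20 (adjusted p = 2.1e-64). NDUFA12 itself was higher by 0.90 ± 0.15. In pig NDUFAF2 had 88.6, 38.1 and 30.6 CPM in germ-like cells and up to 45.4 CPM in lymphocyte-like cells, so the groups overlapped. Its pig difference of 0.72 ± 0.26 (adjusted p = 0.011) was lost on leaving out any 1 of the 3 animals, and NDUFAF2 was the member whose difference was larger in cattle, with a gap of -2.71 ± 0.33.

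NDUFAF4, which works with NDUFAF3 on an early intermediate of the matrix arm, showed the reverse order. In pig it stood at 85.7, 123 and 109 CPM in germ-like cells and at no more than 22.6 CPM in any other sum, a difference of 3.23 ± 0.25 (adjusted p = 2.8e-35). In cattle its germ-like values of 18.8, 33.9 and 21.6 CPM overlapped the Sertoli-like values of 18.5, 46.2 and 23.1 CPM, the difference was 0.89 ± 0.24 (a call lost without the animal block and at Leiden resolution 2), and the gap between the species was 2.24 ± 0.41. NDUFAF6, a factor for the membrane arm, was higher by 1.15 ± 0.26 in cattle, a call lost without animal 2, and by 2.42 ± 0.27 in pig, with 70.0, 44.0 and 52.2 CPM in pig germ-like cells against 16.2 CPM or less elsewhere. The gap of 1.23 ± 0.39 was lost by library size alone and without cattle 3. NDUFAF5, which modifies NDUFS7, was higher in germ-like cells of both species, by 2.39 ± 0.29 in cattle and 2.05 ± 0.36 in pig, with a gap of -0.39 ± 0.56.

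**Figure D5:**
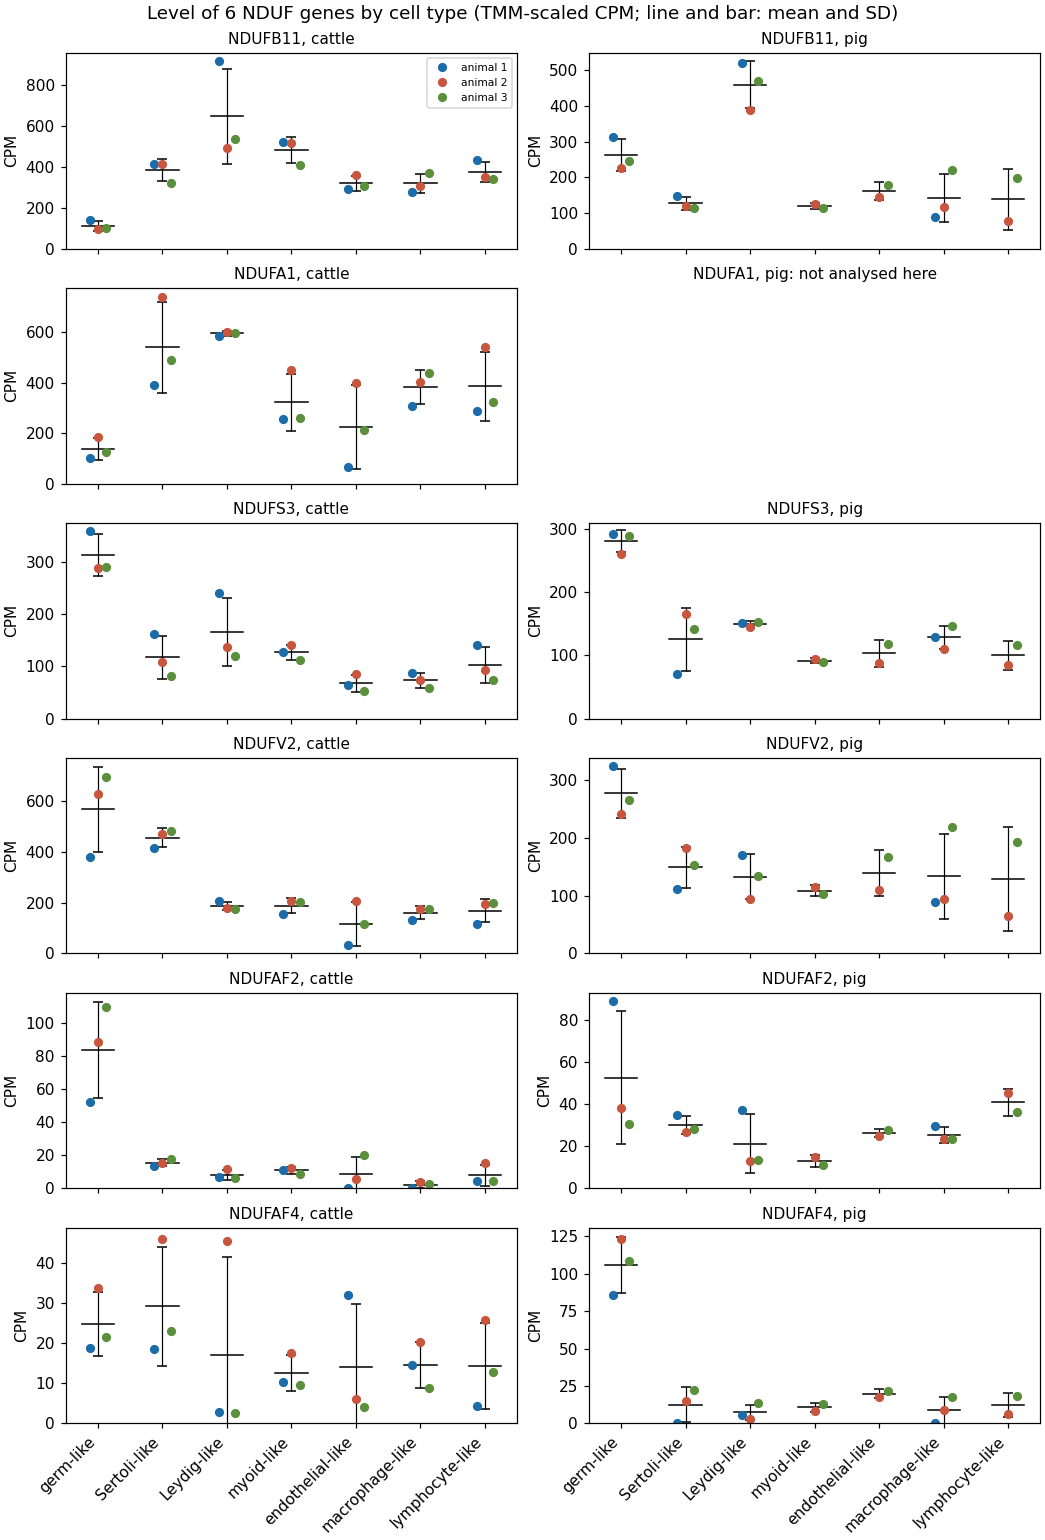
TMM-scaled CPM of NDUFB11, NDUFA1, NDUFS3, NDUFV2, NDUFAF2 and NDUFAF4 by cell type in cattle (left) and pig (right); each point is 1 animal, lines and bars are the mean and SD, and NDUFA1 was analysed in cattle alone. NDUFB11 is lowest in germ-like cells of cattle (95 to 137 CPM), while in pig it is highest in Leydig-like cells.

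NDUFAF3 went the other way in cattle germ-like cells, at -0.74 ± 0.18, but only in 2 of 3 animals, and its sign was positive by library size alone (0.09). It was highest in Leydig-like cells of cattle, with 311, 166 and 191 CPM, and did not differ among cell types of pig (adjusted p = 0.64). NDUFAF7, a methyltransferase, did not pass the test among cell types in cattle (adjusted p = 0.069) or in pig (0.078). Its pig germ-like contrast was called (adjusted p = 0.0027), on 28 UMIs in germ-like cells and 8 in all other named cells together, and was lost without animal 3. NDUFAF1, which binds the membrane arm intermediate, was rare in cattle, with 109 UMIs over 4200 Sertoli-like cells and 8 over 1888 Leydig-like cells. Its Sertoli-like difference was called (adjusted p = 1.0e-05) but lost with DESeq2 and without animal 3. In pig Leydig-like cells NDUFAF5 gave 1 UMI over 1070 cells and was called lower (adjusted p = 0.011), a call lost without animal 2 and without animal 3.

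Sertoli-like cells of cattle had 25 of 39 subunits and 5 of 7 assembly factors higher, and 0 of either lower, where 27.3% of all genes were higher and 13.0% lower. The median subunit difference was 0.55 beside 0.22 over all genes, and the median over the assembly factors was 1.14. By library size alone 17 subunits were higher and 1 lower. Without animal 2, 15 subunits were higher. The 25 subunits were higher in 3 of 3 animals each. NDUFA10, an accessory subunit of the membrane arm with a kinase-like fold, had the largest subunit difference, with 80.4, 14.2 and 40.2 CPM in Sertoli-like cells of the 3 animals. Its level in myoid-like cells of the same animals was 29.2, 7.86 and 9.57 CPM. The groups overlapped across animals but not within an animal, and the difference was 1.81 ± 0.22 (adjusted p = 9.8e-15). NDUFAF6 was higher by 1.73 ± 0.23, with 32.5, 24.3 and 36.3 CPM. NDUFAF4 was higher by 1.14 ± 0.22, a call lost with DESeq2 and without the animal block, and NDUFAF3 by 0.91 ± 0.15. NDUFAF7 was called at an adjusted p of 0.045 and passed under none of the 11 alternatives. Core subunits called higher were NDUFV1 (1.20 ± 0.15), NDUFV2 (1.16 ± 0.15), NDUFS7 (1.07 ± 0.15), NDUFS1 (0.82 ± 0.18) and NDUFS8 (0.81 ± 0.15), and NDUFS1 was lost without animal 3.

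Sertoli-like cells of pig had 2 of 24 subunits higher and 0 lower, where 16.7% of all genes were higher and 7.42% lower. These were NDUFV3 (0.85 ± 0.23) and NDUFS4 (0.64 ± 0.24), an accessory subunit of the NADH-oxidising end with 175, 233 and 224 CPM. Neither call held without animal 2, which gave 2216 of the 2534 cells, and NDUFS4 did not pass the test among cell types. DESeq2 called 7 subunits lower. The test of the germ-like difference was the only direct test between the species, so the counts in Sertoli-like cells are set side by side without one.

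Leydig-like cells of cattle had 21 of 39 subunits higher and 0 lower, where 18.4% of all genes were higher and 9.81% lower, but by library size alone 7 were higher and 9 lower. Of the 21 subunits 20 were higher in every animal. Without animal 1, 11 were higher. Without animal 3 the count was 12, and without the animal block it was 10. The gene with the largest difference was NDUFC1, a small membrane arm subunit, with 347, 501 and 386 CPM against at most 291 CPM in any other sum, and a difference of 1.40 ± 0.15 (adjusted p = 1.0e-19). NDUFA6, which meets the ubiquinone end of the matrix arm, was higher by 1.11 ± 0.16, and NDUFAF3 by 1.17 ± 0.16. NDUFB11 was higher by 1.03 ± 0.15, and NDUFA1 also passed, with its 3 Leydig-like values given above. NDUFS3 was higher by 0.47 ± 0.17, a call lost by library size alone, where it had the opposite sign (-0.02).

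In Leydig-like cells of pig 4 of 24 subunits were higher and 0 lower, where 8.78% of all genes were higher and 6.81% lower. NDUFB11 had the largest difference, with 519, 389 and 469 CPM against at most 314 CPM in any other sum, and a difference of 1.54 ± 0.23 (adjusted p = 7.6e-10). NDUFC1, the leading gene in cattle, was higher by 0.86 ± 0.25, NDUFB2 by 0.72 ± 0.24 and NDUFV1 by 0.71 ± 0.26, the last of which was lost without animal 2. By library size alone 9 subunits were higher and 0 lower, DESeq2 called 9 higher and 1 lower, and without animal 3 the count higher was 7.

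Myoid-like cells of cattle had 6 subunits higher and 3 lower, where 23.5% of all genes were higher and 9.43% lower. NDUFS8 was lower by -0.88 ± 0.17 (adjusted p = 1.5e-06), with 184, 190 and 149 CPM. NDUFB11 was higher by 0.58 ± 0.15. The calls for NDUFB9 (0.53), NDUFA12 (0.40), NDUFAB1 (-0.41), NDUFS7 (-0.40) and NDUFAF3 (-0.58) were each lost in 3 or more of the 11 alternatives. NDUFAB1 is the mitochondrial acyl carrier protein. Without animal 3 only 1 subunit was higher and 1 lower. The counts moved widely: the median ratio size factors gave 1 higher and 11 lower, and naming clusters against all other cells gave 13 higher and 1 lower. In pig myoid-like cells, measured in 2 animals, edgeR called 0 higher and 0 lower, where 11.1% and 2.05% of all genes were called, and DESeq2 called 0 higher and 8 lower. The median subunit difference there was -0.42, beside 0.03 for all genes.

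The 7 mitochondrially encoded subunits, which are transcribed from the mitochondrial genome itself, were tested in the same fits. In cattle all 7 were higher in Sertoli-like cells (median difference 1.79) and in Leydig-like cells (1.37), where 27.3% and 18.4% of all genes were. In germ-like cells 1 was higher and 5 were lower, where 41.8% of all genes were higher and 20.8% lower. Library size alone raised the differences of all genes there by a median of 0.82. ND1 (-0.76), ND2 (-0.62) and ND4 (-0.83) fell by about that much or less under TMM, and ND3 (-1.37) and ND6 (-1.47) by more. In pig all 7 were higher in Leydig-like cells (median 1.21), where 8.78% of all genes were. In pig germ-like cells 0 were higher and 1, ND6, was lower, where 35.6% of all genes were higher and 19.6% lower. Their summed level differed widely between cattle: in Sertoli-like cells it was 5098, 20217 and 36021 CPM in animals 1, 2 and 3. The share of UMIs from mitochondrial genes in those cells was 2.98%, 6.68% and 9.51%. In pig Leydig-like cells the sum was 4003, 4559 and 4571 CPM, above the 3366 CPM that was the highest in any other type. The ratio of nuclear to mitochondrial subunit transcripts in germ-like cells of pig was 5.41, 2.37 and 4.17, against 1.45, 0.98 and 1.13 in Leydig-like cells. The germ-like ratios of pig lay above all Leydig-like ones, but the Sertoli-like ratio of animal 1, 2.45, lay above the lowest germ-like one. In cattle animals 1, 2 and 3 the germ-like ratios were 6.06, 1.81 and 1.08. Their range overlapped that of the Leydig-like ratios of 2.41, 0.65 and 0.32. The cattle myoid-like ratios of 8.61, 2.12 and 1.09 were above the germ-like ones in each animal.

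Other parts of the respiratory chain are given for context, beside the all-gene shares for germ-like cells, which were 41.8% higher and 20.8% lower for cattle, and 35.6% and 19.6% for pig. In germ-like cells of cattle, complex III had 3 of 9 genes higher and 5 lower, complex IV 2 of 11 higher and 6 lower, and complex V 2 of 16 higher and 10 lower. In pig germ-like cells the same complexes had 3 of 5, 3 of 6 and 3 of 8 genes higher, and 0 lower in each. Complex II, which does not pump protons, had 2 of 4 genes higher in cattle and 1 of 3 in pig. Of 14 glycolysis genes, germ-like cells of cattle had 7 lower and 4 higher, and those of pig had 7 lower and 3 higher. These counts are for TMM alone and were not taken by library size. Library size alone raised the log2 differences of all genes in cattle germ-like cells by a median of 0.82. The cattle medians under TMM were -0.97, -0.96 and -0.84 for complexes III, IV and V and -0.51 for glycolysis. In Sertoli-like cells 7 of 14 glycolysis genes were higher and 1 lower for cattle, and 4 were higher and 2 lower for pig, where 27.3% and 16.7% of all genes were higher.

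Assembly factors with other names and regulators of mitochondrial biogenesis were measured too. Their CPM are UMIs over the total pooled over animals, without TMM scaling, while the log2 differences use TMM. ECSIT, which binds NDUFAF1 in the membrane arm assembly complex, gave 1104 UMIs in cattle germ-like cells (207 CPM over all animals) and between 13.3 and 25.3 CPM in the other types, a log2 difference of 2.75 ± 0.17 (adjusted p = 2.2e-59). In pig it was rare, with 32 UMIs in germ-like cells and 11 in the other types together, and was called higher as well (adjusted p = 0.0075). Whether annotation or mapping had a part in the low pig count was not tested. PPARGC1A, the coactivator PGC-1alpha that drives mitochondrial biogenesis, gave 39 germ-like UMIs for cattle and 126 for pig. The other types together gave 22 for cattle, 18 of them in myoid-like cells, and 12 in pig, 8 of them in endothelial-like cells. As rates over all animals, cattle had 7.31 CPM in germ-like, 0.87 in myoid-like and 8.27 in endothelial-like cells. The endothelial-like rate, the highest of cattle, rested on 3 UMIs. In pig the rates were 7.36 CPM in germ-like and 1.70 CPM in endothelial-like cells. Both germ-like contrasts passed (adjusted p = 4.9e-09 and 6.1e-12). Assembly factors with other names gave 2 of 9 higher and 0 lower for germ-like cells of cattle, where 41.8% of all genes were higher. Of the 8 measured in pig 5 were higher and 1, NUBPL, was lower, where 35.6% of all genes were higher. Of the 7 biogenesis genes 2 were higher and 1 lower in cattle, and 3 were higher and 1 lower in pig.

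NDUFA4, the cytochrome c oxidase subunit with a complex I name, stood at 2167, 1688 and 1784 CPM in Leydig-like cells of cattle. The difference there was 1.21 ± 0.15 (adjusted p = 2.8e-14), and germ-like cells had 600, 879 and 856 CPM. NDUFA4L2, its paralogue, known as a hypoxia-induced gene, was nearly silent in cattle, with 32 UMIs in 21 of 518 germ-like cells and 6 UMIs in all other named cells together. The germ-like UMIs came from all 3 cattle, at 1.88, 3.39 and 4.40 CPM, and the contrast was called (adjusted p = 6.1e-08) but lost with DESeq2. The share of cells with a UMI was 4.05% in germ-like cells and 0.0476% in Sertoli-like cells, whose median depths were 3514 to 16908 UMIs and 1228 to 6257 UMIs. In pig, named cells held few NDUFA4L2 transcripts and the test among cell types was not passed (adjusted p = 0.12), with 20 UMIs in germ-like, 11 in endothelial-like and 10 in Sertoli-like cells. The unnamed cells held 82 of the 128 pig UMIs, and 75 of these lay in a cluster of 29 cells led by RGS5, a gene known from pericytes, at 609.3 CPM in animal 2 and 366.4 CPM in animal 3. Animal 1 gave no cell to that cluster, and the CPM of the cluster carry no TMM scaling. The cluster was left unnamed by the rule on mural cell genes, which was set after the clusters were seen.

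In pig members that did not pass the test among cell types included NDUFS5, NDUFA13, NDUFS7, NDUFS1, NDUFA10, NDUFC2, NDUFA6, NDUFS4 and NDUFA4L2. The mean level of NDUFS5, an accessory subunit on the intermembrane side, differed by 1.57-fold between its highest and lowest type in pig. In cattle NDUFS6 and NDUFV3 had the narrowest ranges, of 1.88-fold and 1.95-fold, and both still passed the test. NDUFAF7 alone passed in neither species. Members of this family have near-identical processed copies in mammalian genomes, and reads from such copies cannot be told apart here.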

How the data were processed

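Single-cell libraries from the testes of 3 cattle and 3 pigs were deposited as UMI count matrices that the authors made with Cell Ranger, version 2.1.0 by the labels and 3.0.2 by the header of the pig matrices, on ARS-UCD1.2 and Sscrofa11.1. The deposited counts were raw and listed every barcode in cattle, and only barcodes with at least 500 UMIs in pig. Cells were called by UMI total (10-fold below the 99th percentile of 3000 expected cells), needed 200 genes, and were cleared of doublets with Scrublet. They were clustered with scanpy 1.11.5 (Leiden resolution 1) and named from markers. UMIs were summed per animal and type (at least 20 cells), and genes with at least 10 counts were tested with edgeR 4.0.16 (quasi-likelihood, TMM, Benjamini-Hochberg 0.05). The fit was also run on simulated counts with few changed genes and no animal effect. That run could not check the block, or TMM where most genes differ. The animal was a block, since sums of 1 animal come from 1 library: their deviations correlated in every pair (median 0.435 in cattle, 0.384 in pig). Total UMIs per library ran from 5805223 to 53325608, and intervals cover counting error only. Named genes were the core subunits, NDUFA4, NDUFA4L2, NDUFA1 and NDUFB11, up to 4 called per direction and contrast, called assembly factors, the 10 largest species differences, and members called in no species; other genes were named after their values were seen. The members and lists were chosen with earlier results of these data known. The alternatives were no block, library size, median ratio factors, DESeq2 1.42.0, no filter, 500 genes per cell, Leiden resolution 2, markers against all other cells, and leaving out each animal. Cattle sequences and coordinates were not analysed here, and 1 member, kept in the fits and counts, is not reported here.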

Additional observations from a re-analysis of the deposited data

Results flagged for a closer look

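The germ-like difference of pig minus that of cattle, on the log2 scale, was tested directly with edgeR's quasi-likelihood test and passed for 16 NDUF genes, most of which are named here. Subunits with a larger difference in pig were NDUFB11 (2.41), NDUFV3 (1.80), NDUFB7 (1.75), NDUFA11 (1.68), NDUFC2 (1.40), NDUFB8 (1.34), NDUFC1 (1.09), NDUFS5 (1.03), NDUFB9 (0.93), NDUFA6 (0.92) and NDUFA13 (0.84). The assembly factors with a larger difference in pig were NDUFAF4 (2.24), NDUFAF6 (1.23) and NDUFAF3 (0.89), and NDUFAF2 was larger in cattle (-2.71). Of the 16 calls, 11 were kept under all 14 alternatives, and NDUFA13, NDUFA6, NDUFAF3 and NDUFAF6 were among those lost under at least 1, library size alone included. Species, breed, age, germ cell stage, depth and annotation cannot be told apart here.

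NDUFA4L2 in unnamed pig cells had a signal outside the comparisons. In the 29 cells led by RGS5 it stood at 491.9 CPM (exact Poisson 95% interval 386.9 to 616.6) from 75 UMIs, against 1.204 CPM (0.902 to 1.575) in the other 9177 pig cells. These intervals pool the animals and cover counting error only. In the RGS5 cells animal 2 stood at 609.3 CPM and animal 3 at 366.4 CPM, the latter below the interval.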

How the results depend on the processing

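By library size alone, cattle germ-like cells had 24 higher and 5 lower, Sertoli-like cells 1 lower, Leydig-like cells 7 higher and 9 lower, and myoid-like cells 7 lower, and in pig 23 differed among types, Sertoli-like cells had 4 lower and Leydig-like cells 9 higher. Under that scaling NDUFS3 in cattle Leydig-like cells (-0.0161) and NDUFAF3 in cattle germ-like cells (0.0928) changed sign. With median ratio factors, cattle germ-like cells had 9 lower, Sertoli-like 1 lower, Leydig-like 3 lower and myoid-like 1 higher and 11 lower, and in pig Sertoli-like had 4 lower and Leydig-like 8 higher. DESeq2 gave 10 lower in germ-like, 1 lower in Sertoli-like, 2 lower in Leydig-like, and 2 higher and 12 lower in myoid-like cells of cattle, and in pig 22 among types, 7 lower in Sertoli-like, 9 higher and 1 lower in Leydig-like and 8 lower in myoid-like cells. With no replicate block, so without the pairing by animal, cattle Leydig-like had 10 higher, myoid-like 1 higher and 1 lower, and pig Sertoli-like 1 higher. With no filter, cattle myoid-like had 1 lower, pig Sertoli-like 1 higher and 4 lower, and pig Leydig-like 7 higher. With 500 genes per cell, cattle myoid-like had 1 lower and pig Sertoli-like 2 lower. Leiden resolution 2 gave 2 lower in Leydig-like and 6 lower in myoid-like cells of cattle, and 0 higher and 1 lower in pig Sertoli-like cells. The pig groups themselves changed at that resolution. Sertoli-like cells went from 109, 2216 and 209 in animals 1, 2 and 3 to 54, 63 and 4, the last too few for a sum. Leydig-like cells of pig animal 1 went from 898 to 1893. Markers against all other cells gave cattle Leydig-like 1 lower and myoid-like 13 higher and 1 lower. That naming took the germ-like cells of pig animal 3 from 702 to 343. Leaving out 1 animal gave 6 to 18 lower in cattle germ-like, 15 to 25 higher in Sertoli-like, 11 to 21 higher and 0 to 2 lower in Leydig-like, and 1 to 5 higher and 1 to 3 lower in myoid-like cells, and in pig 10 to 17 among types, 0 to 2 higher and 0 to 1 lower in Sertoli-like and 4 to 7 higher in Leydig-like cells. Where a fit without 1 pig left a type with 1 sum, that sum was assumed to vary like the others. The causes were not tested. NDUFAF1 and NDUFAF7 were rare, and the part of depth in their values was not tested.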
